A study of Mus musculus with 21 samples.

Results

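Of the 21 left ventricles sequenced in the study, 11 came from mice with transverse aortic constriction (TAC) that were given a phosphodiesterase inhibitor, and these 11 libraries were divided into classes chosen by their own measured level of Myh7. A library was placed in the high-Myh7 class at 2000 or more Myh7 CPM (counts as a rate per library size, scaled between libraries by TMM) and in the low-Myh7 class below that. This gave 6 high-Myh7 and 5 low-Myh7 libraries. All animals were C57BL/6J mice, with 1 animal and 1 ear tag per library. TAC is a surgical band on the aortic arch that raises the pressure the left ventricle must pump against. The PDE5A inhibitor group received sildenafil and gave 5 libraries, and the PDE9A inhibitor group received PF-04449613 and gave 6. Both drugs were given for 4 weeks from 1 week after surgery. The remaining 10 libraries were 5 from sham-operated mice and 5 from mice with TAC, both without drug. Total RNA came from frozen left ventricle. The sources used here give no dose, vehicle, age or sex, and nothing in them describes the size of the hearts or the pressure gradient that each animal carried.

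Myh7 encodes the slow, beta isoform of the cardiac myosin heavy chain. The adult mouse ventricle runs almost entirely on the fast alpha isoform from Myh6, and re-expression of Myh7 together with natriuretic peptides, skeletal actin and matrix genes is the textbook transcript pattern of an overloaded mouse heart. PDE5A and PDE9A both hydrolyse cyclic GMP, the second messenger made in response to nitric oxide and to natriuretic peptides, and their inhibition is meant to raise it in the heart muscle cell.

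The Myh7 values that chose the classes are given as a description. In the low-Myh7 class Myh7 stood at 380 CPM (PDE5A inhibitor library 1), 420 CPM (PDE5A inhibitor library 2), 432 CPM (PDE9A inhibitor library 6), 592 CPM (PDE9A inhibitor library 5) and 1747 CPM (PDE9A inhibitor library 2). In the high-Myh7 class it ran from 2955 to 9100 CPM with a median of 5057 CPM. The library nearest below the threshold was PDE9A inhibitor library 2 and the one nearest above it was PDE9A inhibitor library 1. Sham libraries held 198 to 326 CPM and TAC libraries without drug held 2783 to 8670 CPM. Each drug contributed to both classes, with 3 high and 2 low libraries under the PDE5A inhibitor and 3 high and 3 low libraries under the PDE9A inhibitor. Myh7 and Myh6 are near-identical over long stretches, so their expected counts depend on how RSEM shared reads between them.

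Because the classes were made from a measured transcript of the same libraries, differences between them carry no test. A gene is called separate here when the ranges of its TMM-scaled CPM in the 6 high-Myh7 and 5 low-Myh7 libraries do not overlap, and differences are of mean log2 CPM, high minus low. TAC against sham, fitted in edgeR on the other 10 libraries alone, is the only tested comparison. "Rose" and "fell" are used only for genes that it called at an adjusted p under 0.05.

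Total counts ran from 24.26 to 35.68 M in the high-Myh7 class and from 25.67 to 36.48 M in the low-Myh7 class. Every pair of libraries within a group differed by more than counting noise. The ribosomal RNA precursor Rn45s took 0.228 to 0.416% of counts in the high-Myh7 class and 0.230 to 0.271% in the low-Myh7 class, and the highest shares were in PDE9A inhibitor libraries 4 and 1. Ear tags in the 500s covered 2 high and 4 low libraries, those in the 600s covered 3 high and 1 low, and 1 high library had a tag in the 100s. Under the PDE5A inhibitor every low library had a tag in the 500s and every high library one in the 600s, so class and tag series cannot be told apart there. What the tag series stands for is not stated in the labels.

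Without Myh7, 14134 genes were tested. Of these, 274 (1.94%) were separate and higher in the high-Myh7 hearts and 531 (3.76%) were separate and lower, 805 (5.70%) in all. At 2-fold or more the counts were 55 higher (0.389%) and 15 lower (0.106%). Lower genes were more numerous, and fewer of them were 2-fold apart. On library totals without TMM the split was 300 higher and 374 lower. The median difference over all genes was -0.00078.

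Among the gene lists examined, most of the members with separate ranges were mitochondrial energy genes. The lists covered nuclear-encoded subunits of oxidative phosphorylation (36 genes tested), fatty acid uptake and oxidation (30) and the tricarboxylic acid cycle with pyruvate dehydrogenase (18). Separate and lower in high-Myh7 hearts were 22, 18 and 11 of them, where 3.76% of all genes were, and none of the 84 was separate and higher. The median differences were -0.33, -0.41 and -0.34, against -0.00078 for all genes. By size the collagen and matrix list was further apart, with a median of 1.27. Without PDE9A inhibitor library 1, 31 of its 40 members were separate, beside 30 of 36 in the oxidative phosphorylation list. Of all 14134 genes, 578 were then separate and higher and 811 separate and lower. Every member of the 3 lists had a lower mean log2 CPM in the high-Myh7 class. In the tested comparison, 35 of 36, 25 of 30 and 14 of 18 fell in TAC against sham, where 1940 of the 14134 genes (13.7%) fell. These counts depended on the libraries and on the ear tag series. With the series as a term in the fit they were 16, 4 and 5, and the lowest counts with 1 library left out were 20, 12 and 7, each of them reached when sham 1 was left out; leaving out TAC 3 gave 21, 12 and 7, sham 4 gave 21, 12 and 9, and TAC 1 gave 21, 12 and 10. Of all 14134 genes, 953 fell with the series as a term and 1190 without sham 1. Without TAC 3, sham 4 and TAC 1 the numbers were 1136, 1210 and 1231. No member of the 3 lists rose in any of these fits.

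Cox7a1, the heart and muscle isoform of a cytochrome c oxidase subunit (chromosome 7, 30184144 to 30186078, GRCm38), had the largest difference in the oxidative phosphorylation list. Its level in the low-Myh7 libraries was 521 and 533 CPM under the PDE5A inhibitor and 554, 583 and 670 CPM under the PDE9A inhibitor. In the high-Myh7 libraries it ran from 323 to 417 CPM, with a median of 382 CPM. The lowest low-Myh7 heart was thus still above the highest high-Myh7 heart, by more than the SD within either class (374 ± 43.8 CPM, SD, n = 6, and 572 ± 59.5 CPM, n = 5). The difference was -0.62, with -0.43 under the PDE5A inhibitor and -0.77 under the PDE9A inhibitor. In TAC against sham, Cox7a1 fell by 0.72 on the log2 scale (SE 0.19, edgeR adjusted p 0.0176).

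Complex I, which takes electrons from NADH, gave the other named members of the list. Ndufa5 averaged 181 ± 17.9 CPM in the high-Myh7 class and 242 ± 15.3 CPM in the low-Myh7 class. Ndufs4 averaged 135 ± 12.4 and 179 ± 10.3 CPM, and Ndufv2 310 ± 28.8 and 408 ± 26.8 CPM. Their differences, -0.42, -0.42 and -0.40, were of nearly 1 size. Being separate over all libraries, they are separate in each drug arm by definition. All 3 fell in TAC against sham, with edgeR adjusted p of 0.00767, 0.00826 and 0.00795. The 37 complex I subunits with an Nduf symbol were a family looked at after these values were seen. Of them 21 were separate and lower and 32 fell in TAC against sham, where 3.76% and 13.7% of all genes did. Mitochondrial ribosomal proteins did likewise in part, with 21 of 77 separate and lower. Of 84 cytosolic ribosomal proteins none was separate in either direction, where 5.70% of all genes were.

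In fatty acid oxidation, the separate members ran from uptake to the last step of the spiral. Cd36, the fatty acid translocase, averaged 1808 ± 179 CPM in high-Myh7 hearts and 2227 ± 66.6 CPM in low-Myh7 hearts. Acaa2, the mitochondrial thiolase that releases acetyl-CoA, stood at 683, 665, 679, 749 and 815 CPM in the low-Myh7 libraries and at 330 to 650 CPM, with a median of 454 CPM, in the high-Myh7 libraries. The gap between its classes was narrow, since PDE9A inhibitor library 1 at 650 CPM lay just below PDE5A inhibitor library 2. Ech1 and Eci1, which move double bonds so that unsaturated chains can be oxidised, differed by -0.55 and -0.54. Etfb, which passes electrons to the respiratory chain, differed by -0.53. In TAC against sham Ech1 (log2 change -0.97, adjusted p 0.015) and Etfb (-0.89, adjusted p 0.0038) fell in edgeR under every setting tried. The falls of Acaa2 (-0.96, adjusted p 0.0239) and Eci1 (-0.72, adjusted p 0.0382) were less firm. Acaa2 lost its call when sham 1, sham 4, TAC 1 or TAC 3 was left out and with ear tag series as a term, with adjusted p up to 0.0753. Eci1 kept its call only without TAC library 2 or 5 among the 10 libraries left out in turn, and its adjusted p reached 0.109.

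Enzymes of the tricarboxylic acid cycle differed by similar amounts. Idh3a, a subunit of the NAD-dependent isocitrate dehydrogenase, averaged 422 ± 31.6 CPM in high-Myh7 hearts and 567 ± 38.3 CPM in low-Myh7 hearts, a difference of -0.43. The succinyl-CoA ligase subunits Suclg1 and Sucla2 differed by -0.45 and -0.46. Dld, the shared dihydrolipoamide dehydrogenase, differed by -0.40. All 4 fell in TAC against sham, although Sucla2 (adjusted p 0.0262) lost its call when sham 1, sham 3, sham 4, TAC 1 or TAC 3 was left out (adjusted p up to 0.0767). Pdk4, the kinase that switches pyruvate dehydrogenase off, was not separate and ran from 237 to 627 CPM in one class and from 248 to 1222 CPM in the other. Of 20 NADPH oxidase and antioxidant genes, the mitochondrial Sod2, Prdx3 and Prdx5 were separate and lower (-0.46, -0.30 and -0.32), where 3.76% of all genes were. Sod2 fell in TAC against sham (adjusted p 0.0106) and the other 2 did not pass (adjusted p 0.059 and 0.0659).

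The regulators of this programme differed less. Among 16 PGC-1, PPAR and ERR family genes the median difference was -0.18. None was separate, which in a list this short is near the 3.76% of all genes that were separate and lower. The retinoid receptor gene Rxrg differed most (-0.36). Ppargc1a, the coactivator PGC-1 alpha, ran from 74.9 to 154 CPM in the high-Myh7 class and from 100 to 152 CPM in the low-Myh7 class. It fell in TAC against sham (-0.60, SE 0.12, edgeR adjusted p 0.00557), as did 8 other members, where 13.7% of all genes fell. Of 22 glycolysis genes only Ldhb, the lactate dehydrogenase subunit of oxidative muscle, was separate and lower (-0.41). Its fall in TAC against sham (adjusted p 0.0225) was lost when sham 1, sham 4 or TAC 3 was left out (adjusted p up to 0.0625).

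**Figure D1:**
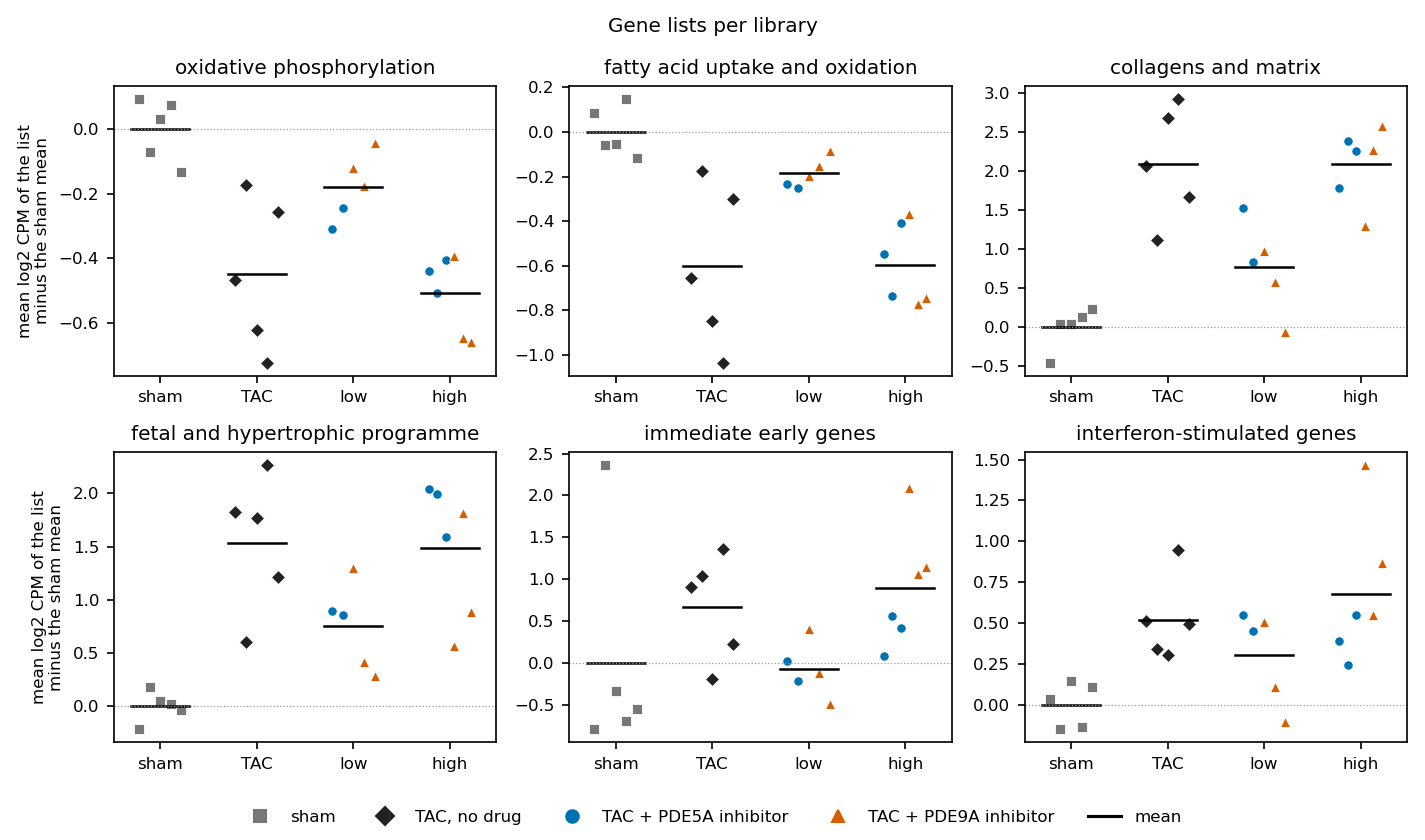
Mean log2 CPM of the members of 6 gene lists in each library, less the mean of the 5 sham libraries (dotted line at 0), for sham, TAC without drug, and the low-Myh7 and high-Myh7 inhibitor-treated libraries; symbols give the group and bars the mean. For oxidative phosphorylation and for fatty acid oxidation every high-Myh7 library lies below every low-Myh7 library (-0.66 to -0.39 against -0.31 to -0.04, and -0.77 to -0.37 against -0.25 to -0.09), while the other 4 lists overlap.

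Matrix genes were higher in high-Myh7 hearts as a group, with fewer of them separate. The 40 collagen and matrix genes all had a higher mean log2 CPM in the high-Myh7 class, with a median difference of 1.27, and 39 of them rose in TAC against sham, where 2049 of 14134 genes (14.5%) rose. Only 5 were separate (1.94% of all genes were separate and higher), Thbs4, Thbs1, Mmp2, Lum and Col18a1. That count rested on single libraries, since it was 21 without PDE5A inhibitor library 1 and 31 without PDE9A inhibitor library 1. Of all 14134 genes, 661 and 578 were separate and higher in these 2 settings. In both drug arms taken separately, 16 of the 40 were separate and higher, the 5 among them by definition, where 3.40% of all genes were.

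Thbs4, the thrombospondin of strained muscle and tendon (chromosome 13, 92751590 to 92794818, minus strand, GRCm38), had the largest difference of the 5. Low-Myh7 hearts held 93.8 and 27.45 CPM under the PDE5A inhibitor and 35.6, 32.1 and 13.4 CPM under the PDE9A inhibitor. High-Myh7 hearts held 95.5 to 223 CPM, with a median of 162 CPM. The classes met closely, because PDE5A inhibitor library 1 stood far above the other low-Myh7 hearts and PDE9A inhibitor library 1 was the lowest high-Myh7 heart. Class means were 166 ± 45.7 CPM and 40.5 ± 31.0 CPM, a difference of 2.27. Sham hearts held 5.86 to 16.2 CPM and TAC hearts without drug 77.7 to 464 CPM, a rise of 4.52 on the log2 scale (SE 0.52, edgeR adjusted p 0.000765). The 250 bases before its annotated start are shown because Thbs4 was the most abundant of the separate genes with a difference above 2 and because they hold the letters of the M-CAT element CATTCC, which TEAD factors bind in muscle promoters. The sequence is from RefSeq, GRCm38.p6, chr13:92794819-92795068, minus strand, with the matches, which share 1 letter and so form 1 run, in capitals.
Thbs4: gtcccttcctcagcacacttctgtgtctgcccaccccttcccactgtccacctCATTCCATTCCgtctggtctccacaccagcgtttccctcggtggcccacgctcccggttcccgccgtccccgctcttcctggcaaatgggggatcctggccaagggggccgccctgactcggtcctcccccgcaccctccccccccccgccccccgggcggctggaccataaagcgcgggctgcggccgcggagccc

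CATTCC or its reverse complement stood in 4817 of 32851 RefSeq promoter windows (14.7%), each of 250 bases before and 50 after a gene's start. For the fatty acid genes the letters searched were AAGGTCA, the extended half-site of the ERR receptors, on both strands; this motif was chosen after the data were seen. It stood in 1550 of the windows (4.72%), and in 438 of 13372 windows of the genes tested (3.28%). In the 3 mitochondrial lists it stood in 3 of 77 windows of all tested members (3.9%). For 42 of their 51 separate and lower genes, those with a matched window, it stood in 2 of 44 windows (4.55%). No conclusion is drawn from these shares, because windows were matched for only part of the genes. Acadm, the medium-chain acyl-CoA dehydrogenase, averaged 897 ± 137 CPM in high-Myh7 hearts and 1165 ± 65.1 CPM in low-Myh7 hearts and is shown because its window holds the motif at its far end, as TGACCTT, in capitals. The sequence is from RefSeq, GRCm38.p6, chr3:153944644-153944893, minus strand.
Acadm: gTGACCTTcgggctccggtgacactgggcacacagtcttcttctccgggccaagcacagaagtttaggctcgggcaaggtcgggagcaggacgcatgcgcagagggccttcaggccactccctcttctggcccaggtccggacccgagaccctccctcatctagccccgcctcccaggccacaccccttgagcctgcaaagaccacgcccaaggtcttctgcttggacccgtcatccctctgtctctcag
A comparison of motif shares between the separate genes and the rest was void, because windows were matched for only 194 of 274 higher genes, 401 of 531 lower genes and 10498 of 14134 genes tested. Acadm fell in TAC against sham (-0.54, adjusted p 0.0367), a call lost when any of sham 1 to 4, TAC 1, TAC 3 or TAC 4 was left out (adjusted p up to 0.11).

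Col22a1, a collagen of tissue junctions (chromosome 15, 71795795 to 72034227, GRCm38), had the largest difference of the genes named by size. It stood at 3.74, 0.886, 1.58, 1.43 and 1.42 CPM in the low-Myh7 hearts and at 5.22 to 10.7 CPM, with a median of 9.39 CPM, in the high-Myh7 hearts. Among the low-Myh7 hearts, PDE5A inhibitor library 1 was alone far above the sham range of 0.708 to 1.12 CPM. The difference was 2.38, and Col22a1 rose in TAC against sham by 3.84 (SE 0.42, edgeR adjusted p 0.000458). Thbs1, the thrombospondin that activates latent TGF-beta, averaged 149 ± 46.6 CPM in high-Myh7 and 45.6 ± 24.3 CPM in low-Myh7 hearts. Its rise in TAC against sham (2.19, adjusted p 0.0285) was lost when sham 1, sham 3, sham 4, sham 5, TAC 3 or TAC 4 was left out (adjusted p up to 0.104). Mmp2, the gelatinase of the matrix, averaged 210 ± 69.2 and 96.5 ± 25.1 CPM, and the collagen-fibril proteoglycan Lum 139 ± 34.0 and 86.7 ± 17.1 CPM. The fibrillar collagen Col1a1 and the fibroblast activation marker Postn overlapped between classes in spite of differences of 1.55 and 1.68. In Postn the overlap came from PDE9A inhibitor library 1, at 241 CPM where the other high-Myh7 hearts held 640 CPM or more. The highest low-Myh7 heart was PDE5A inhibitor library 1 at 457 CPM.

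The remaining large differences came from genes of varied function. Frem1, of the basement membrane, averaged 9.61 ± 4.78 CPM in high-Myh7 hearts and 2.05 ± 0.997 CPM in low-Myh7 hearts. Zfp185, a LIM-domain protein of the actin cytoskeleton, averaged 6.27 ± 3.87 and 1.26 ± 0.728 CPM. Enpp1, which makes pyrophosphate outside the cell, averaged 25.3 ± 5.83 and 10.4 ± 2.82 CPM. Itih5, which binds hyaluronan, averaged 63.3 ± 16.1 and 27.8 ± 6.55 CPM. Crispld1, Megf10, Dok1 and Plekha4 were also among the 12 largest, with differences of 1.17 to 1.38. All of the genes named here from that group, with Col22a1, Thbs4 and Thbs1, rose in TAC against sham, and all but Thbs1 kept the call in every alternative fit.

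Lower in high-Myh7 hearts by the largest amounts were Klhl33 (-1.39), Pla2g5 and Lingo3. Pla2g5, a secreted phospholipase A2 (chromosome 4, 138799244 to 138863482, GRCm38), stood at 24.9 and 22.01 CPM under the PDE5A inhibitor and 20.2, 21.5 and 36.8 CPM under the PDE9A inhibitor in the low-Myh7 hearts. In the high-Myh7 hearts it ran from 6.21 to 12.7 CPM, with a median of 10.7 CPM. No value fell between 12.7 and 20.2 CPM, a wide gap, and PDE9A inhibitor library 6 was far above the other low-Myh7 hearts. The difference was -1.31, and Pla2g5 fell in TAC against sham by 1.36 (SE 0.27, edgeR adjusted p 0.00649).

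Lingo3, a leucine-rich repeat membrane protein, stood at 9.81, 11.8, 13.1, 15.3 and 14.2 CPM in the low-Myh7 hearts and at 3.30 to 7.75 CPM, with a median of 5.51 CPM, in the high-Myh7 hearts. It fell in TAC against sham by 1.43 (edgeR adjusted p 0.00606). Enpp2, the autotaxin that makes lysophosphatidic acid, averaged 7.65 ± 1.25 CPM in high-Myh7 hearts and 13.4 ± 2.82 CPM in low-Myh7 hearts. Crhr2, the urocortin receptor, averaged 14.8 ± 3.47 and 24.6 ± 3.30 CPM. Gpt, an alanine aminotransferase, averaged 20.02 ± 5.25 and 33.7 ± 5.36 CPM. These 3 fell in TAC against sham under every setting tried. Apln, the ligand of the apelin receptor, and Fah, of tyrosine breakdown, were also separate and lower (-0.80 each). The calls of Apln, Fah, Mfsd4 and Tmem150c in TAC against sham each depended on single libraries; without TAC library 3, for one, all 4 were lost. Metrn, a secreted meteorin, and Fbp2, the muscle fructose bisphosphatase, were separate and lower (-0.82 and -0.83) and were not called in TAC against sham (adjusted p 0.141 and 0.0726).

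**Figure D2:**
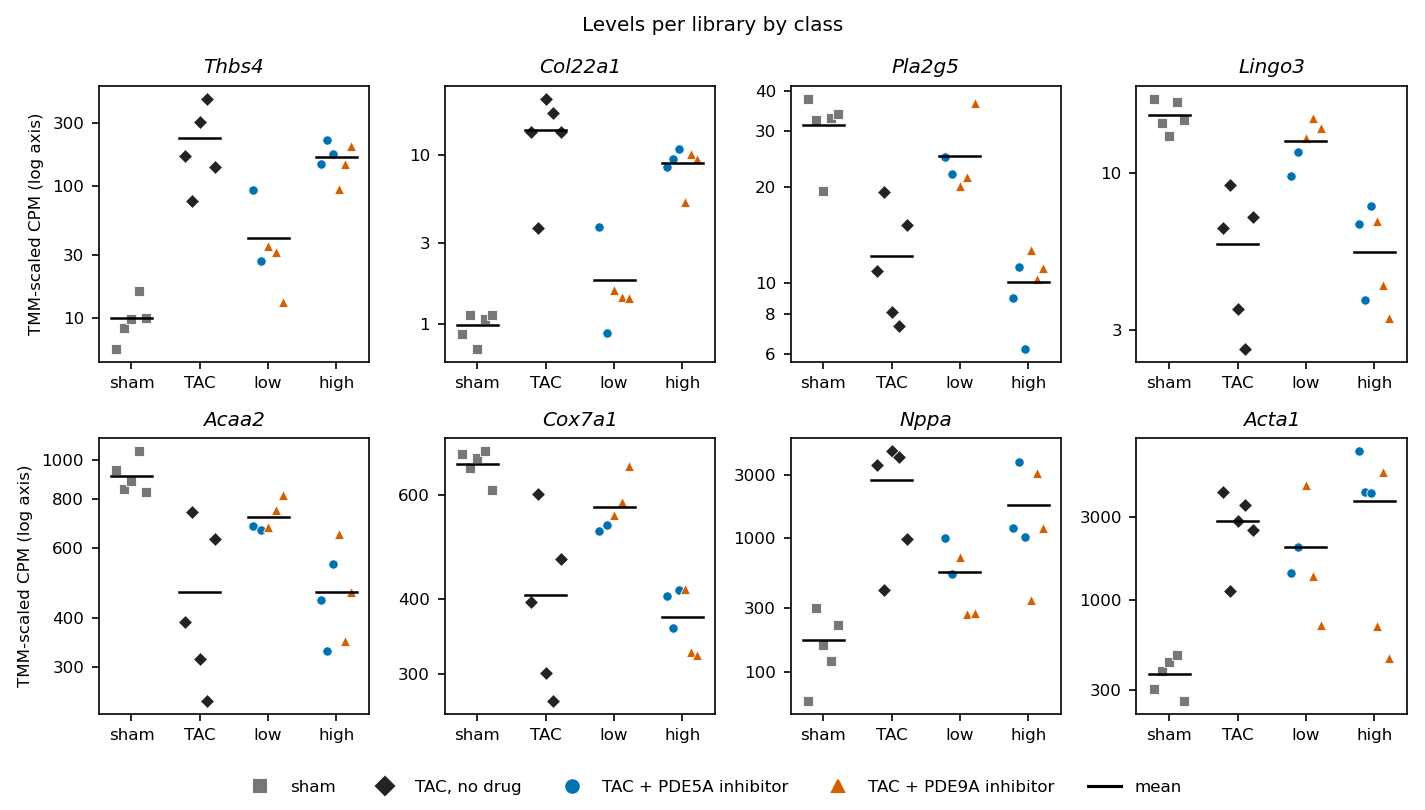
TMM-scaled CPM (log axes) of 8 genes in each of the 21 libraries, by class; symbols give the group and bars the mean. Thbs4 and Col22a1 are separate and higher, and Pla2g5, Lingo3, Acaa2 and Cox7a1 separate and lower, in high-Myh7 hearts, whereas Nppa and Acta1 overlap between the classes.

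Most of the fetal gene programme lay higher in high-Myh7 hearts, with overlap. Among 12 fetal and hypertrophic genes tested none was separate, where 1.94% of all genes were separate and higher. Of the 12, 11 had a higher mean log2 CPM in the high-Myh7 class (median 0.78). In TAC against sham 9 of the 12 rose, where 14.5% of all genes rose. The counts within each drug arm were unlike. Under the PDE5A inhibitor all 12 were separate and higher (12.8% of all genes were), and under the PDE9A inhibitor 1 of 12 was (14.8% of all genes were). The difference between the arms was not tested, and in the PDE5A arm class and ear tag series cannot be told apart.

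Acta1, skeletal alpha-actin, showed this most plainly. Low-Myh7 hearts held 1431 and 2029 CPM under the PDE5A inhibitor and 4591, 1365 and 711 CPM under the PDE9A inhibitor. High-Myh7 hearts held 7240, 4179 and 4115 CPM under the PDE5A inhibitor and 703.5, 5485 and 459 CPM under the PDE9A inhibitor. PDE9A inhibitor libraries 1 and 4 were thus high in Myh7 and yet lower in Acta1 than all 5 low-Myh7 hearts. The difference was 0.56 over both arms, 1.55 under the PDE5A inhibitor and -0.44 under the PDE9A inhibitor.

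Nppa and Nppb, the atrial and B-type natriuretic peptides that act through cyclic GMP, overlapped as well. Nppa stood at 1004, 544, 718, 268 and 277 CPM in the low-Myh7 hearts and at 346 to 3748 CPM, with a median of 1194 CPM, in the high-Myh7 hearts. For Nppb PDE9A inhibitor library 1 held 173 CPM, below every low-Myh7 heart (250 to 635 CPM) and within the sham range of 140 to 195 CPM. Without PDE9A inhibitor libraries 1 and 4, 9 of the 12 fetal genes were separate and higher, as were 743 of all 14134 genes. Myh6 ran from 21680 to 39960 CPM in the high-Myh7 class and from 30920 to 47900 CPM in the low-Myh7 class. Its difference was -0.36, with overlap, beside SDs of log2 CPM of 0.29 in the high-Myh7 and 0.25 in the low-Myh7 class, and its fall in TAC against sham (-0.71, adjusted p 0.0198) was lost without TAC library 3 (adjusted p up to 0.0694 over all settings).

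Adult contractile and calcium cycling genes had small median differences (-0.08 in both lists), and ion channel genes lay lower in high-Myh7 hearts. Of 20 sarcomere and Z-disc genes only Actc1, cardiac alpha-actin, was separate and lower (-0.24). Of all genes 3.76% were separate and lower, and such low counts in short lists are near that share. Of 15 calcium cycling genes none was separate, and Hrc, a calcium-binding protein of the sarcoplasmic reticulum, differed most (-0.47). Atp2a2, the calcium pump of the sarcoplasmic reticulum, averaged 12130 ± 1697 CPM in high-Myh7 hearts and 15850 ± 2535 CPM in low-Myh7 hearts, with overlap, and fell in TAC against sham (-0.85, SE 0.17, adjusted p 0.00588). Of 18 repolarising and conduction channels none was separate. Of these, 17 had a lower mean log2 CPM in the high-Myh7 class. The median difference of -0.36 lay within the range of the mitochondrial list medians. In TAC against sham 9 of the 18 fell, where 13.7% of all genes fell. Kcnv2, a modifying subunit of voltage-gated potassium channels, differed most (-1.03), at 2.95 to 11.5 CPM in high-Myh7 and 5.97 to 17.7 CPM in low-Myh7 hearts. Kcnj3, a subunit of the muscarinic potassium channel, differed by -0.77. The overlap in Kcnj3 came from PDE9A inhibitor library 1, at 39.6 CPM where the other 5 high-Myh7 hearts held 13.0 to 25.9 CPM and low-Myh7 hearts 29.0 to 45.8 CPM.

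The drug targets overlapped between classes, and the cyclic GMP pathway list had a median difference of 0.06, with members from -0.85 to 0.58. Pde5a averaged 11.3 ± 1.13 CPM in high-Myh7 hearts and 10.7 ± 1.12 CPM in low-Myh7 hearts. Pde9a averaged 3.22 ± 1.47 and 2.45 ± 0.541 CPM, with overlap. Transcript levels say nothing of the activity of the inhibited enzymes. The natriuretic peptide receptor Npr1 (0.24) and the cyclic GMP-dependent kinase Prkg1 (0.16) also overlapped, and Prkg1 rose in TAC against sham (0.36, SE 0.06, adjusted p 0.00264). Of 28 pathway genes only Pde3b, a phosphodiesterase that cyclic GMP inhibits, was separate, a count near the 5.70% of all genes that were. It stood at 9.98, 11.2, 9.51, 9.68 and 7.91 CPM in the low-Myh7 hearts and at 12.2 to 18.1 CPM, with a median of 13.7 CPM, in the high-Myh7 hearts. Pde3b did not change in a way that passed the test in TAC against sham (0.13, SE 0.18, adjusted p 0.612), and sham hearts held 7.68 to 15.7 CPM, which spans both classes.

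Among signalling lists, single members were separate, where 5.70% of all genes were. Counts of no or single members in short lists are near that share. Igfbp5, a binding protein of insulin-like growth factors, averaged 164 ± 21.6 CPM in high-Myh7 and 105 ± 18.0 CPM in low-Myh7 hearts and rose in TAC against sham (1.19, adjusted p 0.0026). Cx3cl1, the chemokine fractalkine, was higher (0.70) and rose, and Ccl11, the chemokine eotaxin, was lower (-2.11) and fell in TAC against sham (-3.69, adjusted p 0.00117). Ccl11 was scarce, with 0.0542 to 0.328 CPM in the high-Myh7 and 0.495 to 2.26 CPM in the low-Myh7 hearts. Of 23 TGF-beta genes none was separate. Gdf15, a secreted stress factor of that family, differed most (1.58), with 1.03 to 42.3 CPM in high-Myh7 and 1.11 to 5.74 CPM in low-Myh7 hearts, and rose in TAC against sham (4.26, adjusted p 0.00392). Tgfb3, a ligand, differed by 1.07 with overlap, because PDE5A inhibitor library 1 held 52.9 CPM where the other low-Myh7 hearts held 20.8 to 28.3 CPM. The cytoskeletal genes Tubb3, Flna and Lmna were separate and higher (1.16, 0.40 and 0.33) out of 19 filament, tubulin and filamin genes. Tubb3 and Lmna rose in TAC against sham (adjusted p 0.0154 and 0.0171), and both calls were lost with ear tag series as a term (adjusted p up to 0.0665 and 0.0699). None was separate among 17 calcineurin, NFAT and MEF2 genes, 18 ubiquitin ligase, small heat shock protein and autophagy genes, 20 endoplasmic reticulum stress genes or 28 cell cycle genes. The largest differences in these lists were 0.60 for Nfatc4 and 0.53 for Myoz1, -0.24 for Map1lc3a and -0.21 for Trim63, -0.38 for Herpud1 and 0.31 for Edem1, and 1.27 for Plk1 and 1.10 for Bub1, which were scarce in both classes (at most 1.17 and 1.96 CPM).

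**Figure D3:**
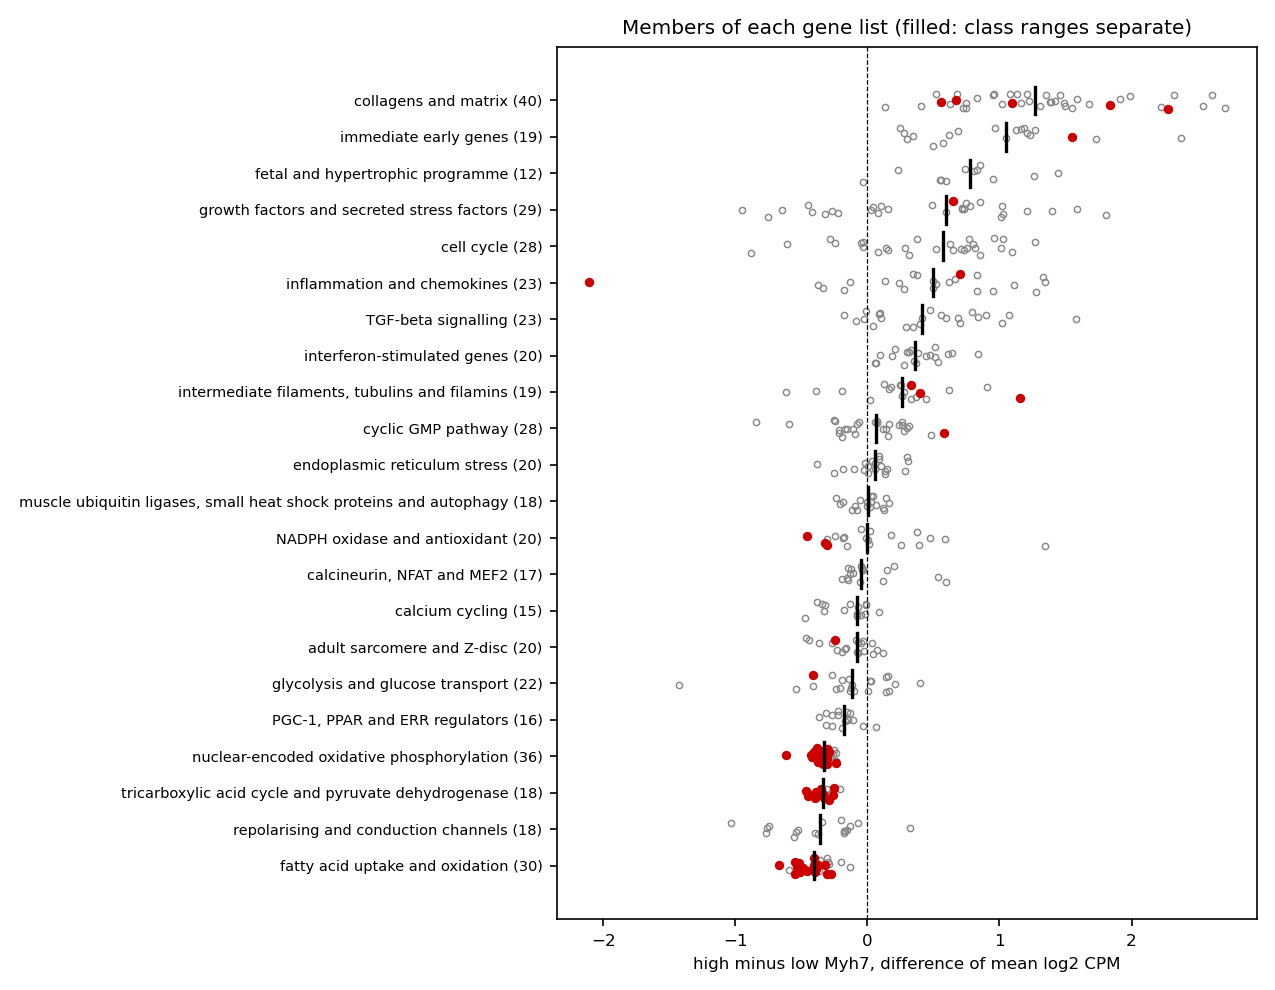
Difference of mean log2 CPM, high minus low Myh7, for each tested member of 22 gene lists, with the number tested in brackets; filled points are genes whose class ranges do not overlap, bars are list medians and the dashed line is the median of all genes. The 3 mitochondrial lists are tight and mostly filled between about -0.2 and -0.7, whereas the matrix, fetal and immediate early lists spread widely to the right with few filled points.

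In the immediate early and interferon-stimulated lists, most members were separate and higher under the PDE9A inhibitor, where 14.8% of all genes were. Under the PDE5A inhibitor 12.8% of all genes were. These lists were not alone in this. Of 23 TGF-beta genes, 14 were separate and higher under the PDE9A inhibitor and 3 under the PDE5A inhibitor. Of 40 collagen and matrix genes, 24 and 31 were. Of 19 immediate early genes, which respond to stimuli within minutes, 16 were separate and higher under the PDE9A inhibitor and 7 under the PDE5A inhibitor. Over both arms only Egr3 was separate, at 1.37, 0.625, 1.35, 1.31 and 0.921 CPM in the low-Myh7 hearts and at 1.496 to 5.84 CPM, with a median of 3.57 CPM, in the high-Myh7 hearts. Fos ranged from 3.93 to 63.1 CPM in the high-Myh7 class, with the highest value in PDE9A inhibitor library 1. None of the 19 was called in TAC against sham in edgeR, with 1 at an unadjusted p under 0.05, and none was called by DESeq2. Sham library 2 held 154 CPM of Fos, above every other library, and without it 12 of the 19 rose in TAC against sham, Egr3 among them (adjusted p 0.0115). Of 20 interferon-stimulated genes, 13 were separate and higher under the PDE9A inhibitor, whereas under the PDE5A inhibitor none was higher and 4 were lower, near the 15.1% of all genes that were lower there. Mx1 had the largest difference over both arms (0.84), with overlap. Ifit3 differed by 1.22 in the first arm and by -0.01 in the second, and its highest value was 64.5 CPM in PDE9A inhibitor library 1. Over both arms, without PDE9A inhibitor libraries 1 and 4, 2 immediate early genes and none of the interferon-stimulated genes were separate. Of all 14134 genes, 743 were separate and higher in that setting. Whether the arms differ in these lists was not tested.

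Markers of other cell types moved with the classes for some lists. Summed over 12 fibroblast markers, the level was 4486 to 7744 CPM in high-Myh7 and 3160 to 4973 CPM in low-Myh7 hearts. Summed over 10 activated fibroblast markers, some of which are also matrix list members, it was 1102 to 3825 and 295 to 1510 CPM. The 7 pericyte markers summed to 1023 to 1264 CPM in high-Myh7 and 1283 to 1700 CPM in low-Myh7 hearts and did not overlap. Abcc9 was the largest part of that sum in each library and, with Vtn, was separate and lower, whereas 3 of the 7 had a higher mean log2 CPM in high-Myh7 hearts, up to 0.26, and 2 were separate and higher under the PDE9A inhibitor. The 12 cardiomyocyte markers summed to 120600 to 149800 and 124400 to 171000 CPM, and none of them was at 0 in either class. Ttn was the largest part of that sum in each library. All 12 had a lower mean log2 CPM in the high-Myh7 class (median -0.26), and only Actc1 was separate over all 11 libraries. Under the PDE9A inhibitor 7 of the 12 were separate and lower, where 16.7% of all genes were. Under the PDE5A inhibitor 2 were, where 15.1% of all genes were. Endothelial, smooth muscle and macrophage sums overlapped, and no marker of the 17 lists was at 0 in all 11 libraries. In bulk tissue, fewer cells of a type and less RNA per cell cannot be told apart, and the part of cell composition in the differences above was not tested. The 8 atrial markers, Nppa among them, summed to 429 to 3805 CPM in high-Myh7 and 310.5 to 1058 CPM in low-Myh7 hearts. The atrial genes Myl7, Myl4 and Sln were scarce except in PDE9A inhibitor library 1, which held 11.9 CPM of Myl7, 13.2 CPM of Myl4 and 2.42 CPM of Sln, where the other 10 inhibitor-treated libraries held at most 0.175, 2.77 and 0.1895 CPM. The part of that library's atrial transcripts in its values of Nppa, which atrial muscle also makes, was not tested.

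The genes that separated the classes were set beside TAC against sham, which shares no library with them. Of the 274 genes higher in high-Myh7 hearts, 178 (65%) rose in TAC against sham, where 14.5% of all genes rose, and none fell. Of the 531 lower genes, 355 (66.9%) fell, where 13.7% of all genes fell, and none rose. At 2-fold or more, 39 of 55 higher genes (70.9%) rose and 13 of 15 lower genes (86.7%) fell. Seen from the other side, the shared genes were 8.69% of the genes that rose and 18.3% of those that fell. Among the genes not called, 88 of 96 higher and 168 of 176 lower genes had the same sign in TAC against sham. All 21 genes that were separate, at least 2-fold apart and at 5 CPM or more in the higher class were called in the same direction in TAC against sham. In edgeR, TAC against sham called 3989 genes (28.2%), with 5840 at an unadjusted p under 0.05. That count was 2522 without TAC library 3, 2617 without sham library 1 and 2647 without sham library 4, and the share of separate genes called the same way was then 42.1%, 43.1% and 43.1% in place of 66.2%. With ear tag series as a term the fit called 2161 genes and the share was 35.9%. In these fits, with each other library left out and by DESeq2, no separate gene was called in the opposite direction, and in the fit to all 10 libraries none had an unadjusted p under 0.05 in the opposite direction.

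**Figure D4:**
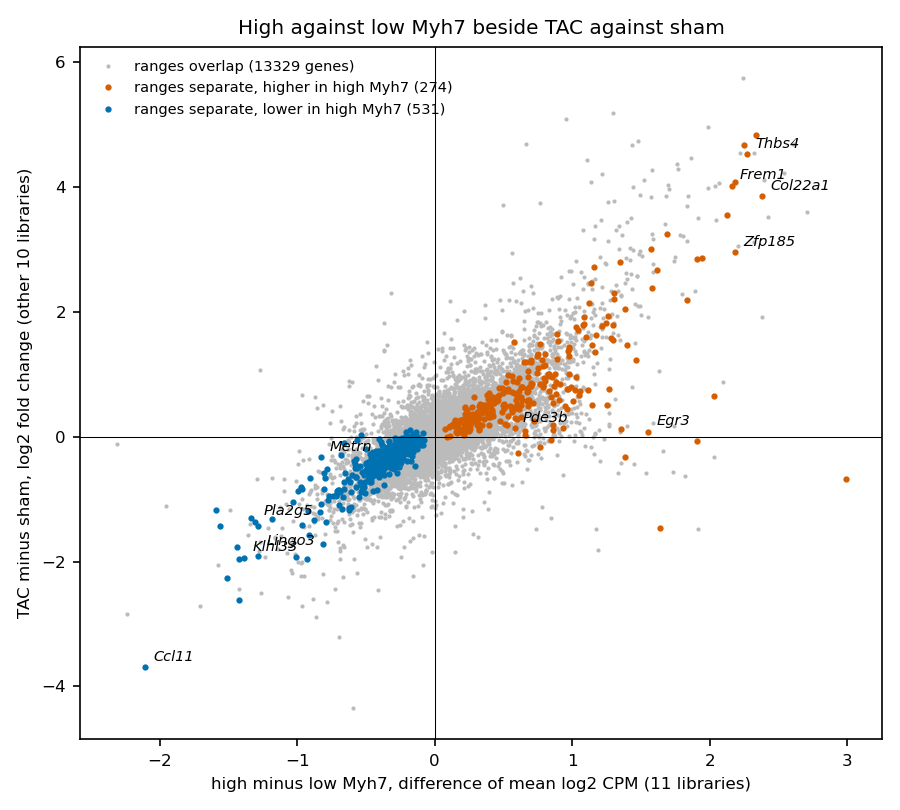
Each point is 1 of 14134 genes, with the difference of mean log2 CPM between 6 high-Myh7 and 5 low-Myh7 libraries on the horizontal axis and the edgeR log2 fold change of TAC against sham, from the other 10 libraries, on the vertical axis; coloured points are genes whose class ranges do not overlap. Coloured genes lie mainly in the upper right (higher, such as Thbs4 and Col22a1) and lower left (lower, such as Ccl11 and Klhl33), while Egr3 and Pde3b are higher in high-Myh7 hearts and near 0 in TAC against sham.

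Taken by drug, 1281 genes were separate in the same direction in both arms, 480 higher (3.40%) and 801 lower (5.67%), and 153 were separate in opposite directions. The 805 genes separate over all 11 libraries are part of the 1281 by definition. With 3 against 2 and 3 against 3 libraries the arms pass genes easily, at 12.8% higher and 15.1% lower under the PDE5A inhibitor and 14.8% higher and 16.7% lower under the PDE9A inhibitor. Against these shares, the oxidative phosphorylation list had 30 of 36 members separate and lower in the first arm and 36 of 36 in the second. The fatty acid list had 25 and 26 of 30, and the tricarboxylic acid cycle list 13 and 16 of 18. The 22, 18 and 11 members of these lists that were separate over all 11 libraries are separate in each arm by definition. The size differed between arms, with medians of -0.17 and -0.45 for oxidative phosphorylation, -0.35 and -0.49 for fatty acid oxidation and -0.17 and -0.48 for the cycle; that difference was not tested.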

How the data were processed

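Expression was measured in left ventricle from 21 mice by stranded total RNA sequencing. The authors deposited 1 table of RSEM expected counts for 24054 gene symbols, unscaled, in which 19% of values had decimals. The submitters' processing notes name DESeq2 1.18.1, RSEM 1.3.0, HISAT2 2.0.5, CASAVA 1.8.4 and the build mm10, without saying what each was used for. For the annotation, the sources used here give no name. Rows with a date in place of a symbol (27) are named nowhere.

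Expected counts were rounded, filtered with filterByExpr by the 4 labelled groups and scaled by TMM in edgeR 4.0.16 (R 4.3.3), which left 14134 genes without Myh7. Library totals ran from 22.67 to 40.99 M counts. Classes follow a Myh7 threshold of 2000 TMM-scaled CPM, and log2 CPM used a prior count of 2. High against low Myh7 is a description by class ranges, with no test. TAC against sham was tested on 5 against 5 libraries with edgeR's quasi-likelihood test (glmQLFit with robust estimation, glmQLFTest) and Benjamini-Hochberg adjustment over all genes, called at an adjusted p under 0.05. The script was tested on simulated data. DESeq2 1.42.0 and the other alternatives are given in the closing section. Adjusted p-values in the text are edgeR's unless stated.

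Members and gene lists were chosen with earlier results of these data known. Genes named are the 12 largest separate differences in each direction at 5 CPM or more in the higher class, without predicted genes. One of them is not reported here. To these come the 4 largest separate members of each list (the 2 largest where none is separate) and Pde5a, Pde9a, Npr1, Prkg1, Postn, Col1a1, Nppa, Nppb, Atp2a2, Acta1 and Myh6. Acadm, Cd36, Pdk4, Fos, Myl7, Sln, Abcc9, Vtn and Col18a1 fall outside this rule and were named after their values were seen. Ear tags mark separate animals. Gene coordinates are from GENCODE M21 (GRCm38) and span exons and introns of all transcripts; each located gene is protein-coding.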

Additional observations from a re-analysis of the deposited data

Results flagged for a closer look

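Of 160 pairs of a named gene and a class, 16 held 1 library far from the others of its class, by a rule that flags about 1 in 20 groups by chance. The low-Myh7 heart PDE5A inhibitor library 1 gave 6 of them, most of them towards the high-Myh7 class. It held 3.74 CPM of Col22a1 (the other 4 held 0.886 to 1.58 CPM), 93.8 CPM of Thbs4 (13.4 to 35.6 CPM), 2.56 CPM of Zfp185 (0.837 to 1.03 CPM), 52.9 CPM of Tgfb3 (20.8 to 28.3 CPM) and 26.1 CPM of Edem1 (20.9 to 21.9 CPM). Its Crhr2, 18.96 CPM, was below the others (24.9 to 27.3 CPM). The low-Myh7 heart PDE9A inhibitor library 6 stood above the others in 3 genes that were lower in high-Myh7 hearts: Pla2g5 at 36.8 CPM (20.2 to 24.9 CPM), Metrn at 28.5 CPM (22.4 to 23.4 CPM) and Enpp2 at 18.4 CPM (11.8 to 12.4 CPM).

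Among high-Myh7 hearts, PDE9A inhibitor library 1 held 13.2 CPM of the atrial light chain gene Myl4 (the other 5 held 1.301 to 2.77 CPM), 232 CPM of Herpud1 (103 to 140 CPM) and 64.5 CPM of Ifit3 (14.4 to 29.1 CPM). PDE9A inhibitor library 4 held 110.8 CPM of Tgfb3 (42.1 to 66.3 CPM), 15.8 CPM of Nfatc4 (5.98 to 8.82 CPM) and 36.6 CPM of Cx3cl1 (18.0 to 21.1 CPM). PDE9A inhibitor library 3 held 204 CPM of Lum (116 to 146 CPM).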

How the results depend on the processing

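High against low Myh7 separated 805 genes, 773 with DESeq2 size factors and 823 without the filter on low counts. The count was 3947 in the PDE5A inhibitor libraries alone, 4446 in the PDE9A inhibitor libraries alone, 1648 without PDE9A inhibitor libraries 1 and 4, 4953 with ear tags in the 500s alone and 70 at 2-fold or more; fewer libraries leave fewer values to overlap. With 1 library left out it ran from 854 to 1498 (without PDE5A inhibitor library 1), with 1396 without PDE5A inhibitor library 3 and 1389 without PDE9A inhibitor library 1. Classes were the same 11 of 11 under each scaling. TAC against sham called 3989 genes, 4638 by DESeq2 and 2161 with ear tag series as a term, and from 2522 to 5092 (without TAC library 2) with 1 library left out. Replicate numbers did not pair sham with TAC libraries (correlations of deviations -0.036, 0.048, 0.04, -0.18 and -0.08). With the replicate number as a block 2351 genes were called and the share of separate genes called the same way was 38.3% in place of 66.2%. That share was 74.3% at 2-fold or more, 71.8% with DESeq2, 61.8% without the filter, 35.9% with ear tag series as a term (chosen after seeing the data) and 42.1 to 76.1% with 1 library left out (likewise); the cause was not tested. Of 1360 recomputed differences of named genes, 34 moved by more than the spread within classes and no separate gene changed sign. Where a setting only leaves out libraries, a separate gene keeps its sign by definition, so this is no check there. Depth limits most the scarcest named genes, such as Ccl11.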

Other observations

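Families outside the gene lists were looked at after the values were seen. Of 41 mitochondrial carriers (Slc25), 7 were separate and lower in high-Myh7 hearts, where 3.76% of all genes were, and none was higher. The median difference of the carriers was -0.19. They include Slc25a4, the adenine nucleotide translocator of heart and muscle, and Slc25a20, the acylcarnitine carrier, which is also a fatty acid list member. Of 39 proteasome subunits none was separate (median -0.06), where 5.70% of all genes were. Of 36 collagen chains (median 0.75) 2 were separate and higher, Col18a1 and Col22a1, where 1.94% of all genes were. In TAC against sham 24 of the chains rose, where 14.5% of all genes rose, and 1 fell. Of 9 cartilage and tendon markers 6 were tested; all 6 had a higher mean log2 CPM in the high-Myh7 class (median 1.74) and all 6 rose in TAC against sham. Their summed level was 97.3 to 453 CPM in high-Myh7 and 18.0 to 131 CPM in low-Myh7 hearts, with Tnmd, tenomodulin of tendon, separate and higher. The 10 erythroid markers, mainly globins, summed to 714 to 1556 CPM in high-Myh7 and 1135 to 2477 CPM in low-Myh7 hearts, with overlap.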
